A study of Saccharomyces cerevisiae with 10 samples.

Results

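The ATAC-seq peaks described here are those that appear in 1 of the 2 deposited peak lists and have no counterpart in the other. They were chosen by position: a line of one list was taken when it overlapped no line of the other list by 1 bp or more. Of the 2480 lines in the longer list, 331 were found in that list only (13.3%, 95% Wilson interval 12.1% to 14.7%). Of 2457 lines in the shorter list, 284 were found in that list only (11.6%, interval 10.4% to 12.9%). Together these are 615 of 4937 lines. An ATAC-seq interval is called a line here, and the word peak is kept for ORC. The lists are named by their lengths, the longer list (2480 lines) and the shorter list (2457 lines), because their strains cannot be assigned.

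The study asked whether removing the insertion helix of Orc4, a short helix that reads bases in the major groove of origin DNA, changes where the origin recognition complex binds in budding yeast. Both strains are MATa and can1-100, with the alleles leu2-3,112 and trp1-1 as well as his3-11,15 and ade2-1, the endogenous ORC4 gene under the GALS promoter (GALS-ORC4-kanMX4) and a MYC tag on ORC6 (ORC6-MYC-hphNT1). The WT strain expresses ORC4, and the mutant strain orc4-IH_delta, from a URA3-marked copy at ura3-1 that the study describes as driven by the native ORC4 promoter. For at least 18 h in YPD at 30 °C the GALS promoter was shut off, so that each strain relied on the added copy, and benomyl, which depolymerizes microtubules, was then added at 20 µg/ml for about 3 h to hold cells in G2/M. ATAC-seq gave 1 library and 1 list per strain. ORC ChIP-seq through the MYC tag gave 2 libraries per strain, which the authors had already combined into 1 list of 618 peaks for WT ORC and 1 list of 2219 peaks for the mutant complex, ORC-IHΔ.

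ATAC-seq uses a transposase that inserts adapters where DNA is not wrapped in nucleosomes, so that cut sites pile up over nucleosome-depleted regions such as promoters and replication origins. ORC marks origins and serves as the platform on which the MCM helicase is loaded. In budding yeast it binds a T-rich consensus sequence within such depleted regions, and it takes part in positioning the nucleosomes beside them. A peak caller keeps an interval when the cuts exceed a background by a set margin, so a region near that margin can be listed in one library and missed in another without a large difference in its cuts.

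The label and the name of each ATAC-seq list give opposite strains, and the text of the study follows the names. No direction between WT and mutant is therefore given for any ATAC-seq value. With 1 library per list there is no replicate spread, the lines of a list are not replicates of each other, and no test between the lists was made. Membership was decided by the calls themselves, so widths, fold enrichments and gaps to the other list are descriptions. Wilson intervals cover counting error only. Coordinates are those of build sacCer2, to which no gene annotation was matched, so the lines are given by position alone.

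Lines found in 1 list only were low and narrow. Their fold enrichment, the cuts at the summit over the background, had a median of 2.05 in the longer list (interquartile range 1.8 to 2.34, range 1.38 to 5.0) and of 2.03 in the shorter list (1.8 to 2.34, range 1.36 to 3.78). Overlapping lines had medians of 3.46 and 3.40. Of the lines found in 1 list only, 314 of 331 (94.9%) and 281 of 284 (98.9%) lay at or below the median of their own list, 3.15 and 3.12. Each list was also cut by fold enrichment into 10 groups of nearly equal size, and the lowest 3 groups held 257 (77.6%) and 236 (83.1%) of them. The share of lines found in 1 list only fell along these groups in both lists. In the longer list it was 47.2% of 248 lines in the lowest group, 18.5% in the fourth and 4.44% in the fifth. The same groups of the shorter list held 42.7%, 12.7% and 5.69%. The highest 2 groups held none in either list, and 0 of 248 has an upper Wilson bound of 1.53%. Every line of these highest groups thus had a counterpart.

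**Figure D1:**
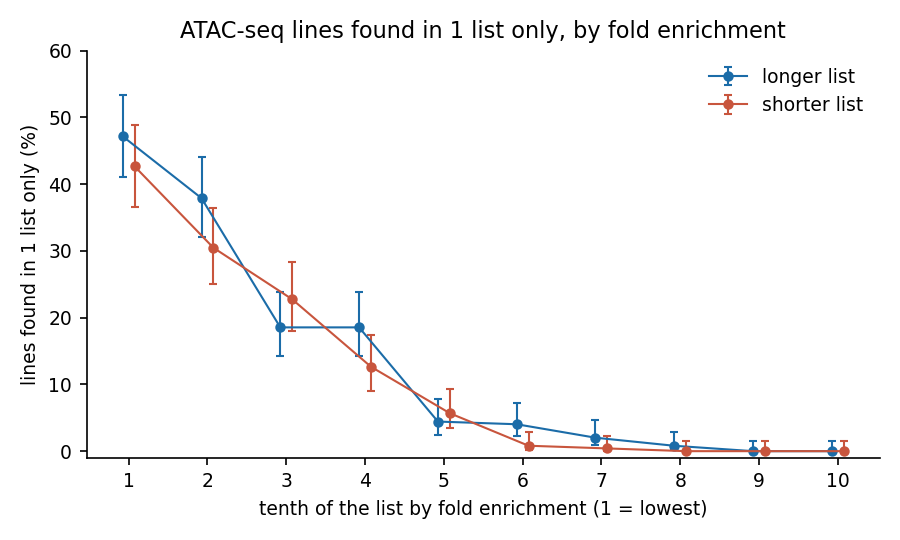
Share of ATAC-seq lines found in 1 list only, in percent, for 10 groups of each list ranked by fold enrichment (1 is the lowest). Points are shares and bars 95% Wilson intervals, which cover counting error only; the shares fall from 47.2% and 42.7% in the lowest groups to 0% in the highest.

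The median width was 232 bp in the longer list (interquartile range 178.5 to 344.5 bp) and 200 bp in the shorter list (165 to 279 bp), against 504 and 462 bp for overlapping lines. Both lists start at 150 bp, and 26 and 24 of the lines found in 1 list only had exactly this width. Lines of 150 to under 200 bp made up 124 of 331 (37.5%) and 142 of 284 (50.0%). Only 10 and 8 were 600 bp or wider, a class that holds 861 and 808 lines of the whole lists. The lines found in 1 list only covered 92331 bp, or 6.63% of the bases in the longer list, and 73143 bp, or 5.47% of those in the shorter list. They were thus a smaller part of the listed DNA than of the lines. The widest lay on chromosome VII, 552500 to 553916 (1417 bp, fold enrichment 2.90, shorter list), and on chromosome XV, 709214 to 710554 (1341 bp, fold enrichment 3.42, longer list).

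The caller's fold enrichment and p-value together fix the number of cuts at a summit, and whole numbers were recovered for all 331 and all 284 lines. The median was 98 cuts within 150 bp (interquartile range 86 to 117.5) in the longer list and 95 (82 to 112) in the shorter list. Overlapping lines whose cuts could be recovered had medians of 164 and 158. The genome-wide background was 43.4 cuts per 150 bp in the longer list and 41.9 in the shorter list, so the libraries were of similar depth by this measure. At this background stood 60.1% and 60.6% of the lines found in 1 list only, and 55.9% and 57.1% of the overlapping lines. The remainder had a higher local background. At the genome-wide background the lowest lines found in 1 list only had 64 and 61 cuts, and the lowest overlapping lines 66 and 64. The median −log10 p was 10.5 and 10.4, against 42.5 and 40.5 for overlapping lines. Of the lines found in 1 list only, 2 and 4 had a −log10 q under 2. Most were therefore well past the caller's own threshold in the library in which they were listed. The cuts at the same position in the other library are not part of the lists, so a missing line does not show that the region was closed there.

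The gap to the other list, counted in bases between the nearest ends, had nearly the same distribution in both lists. The median was 1403 bp (interquartile range 543.5 to 2927.5 bp) for the longer list and 1365 bp (624.5 to 2612.5 bp) for the shorter list. Gaps under 100 bp were found at 6 of 331 and 9 of 284 lines, and gaps of 100 to under 200 bp were found at 29 and 23 lines. Gaps of 1000 bp or more were found at 71, 92, 30 and 1 lines of the longer list in the classes of 1 to 2, 2 to 5, 5 to 10 and over 10 kb. These classes held 76, 69, 25 and 2 lines of the shorter list. Since the rule used the gap, and lines of the same list never stood closer than 72 bp in the longer list and 70 bp in the shorter, nothing is read from the low number of small gaps. The nearest line of the other list was itself found in 1 list only for 26 and 30 lines.

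**Figure D2:**
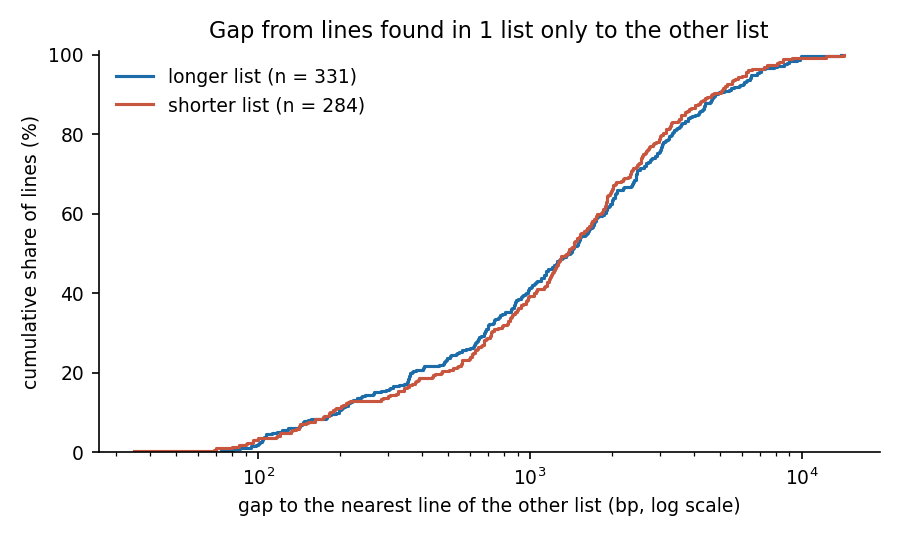
Cumulative share, in percent, of the lines found in 1 list only (331 and 284) against the gap in bp to the nearest line of the other list, on a log scale. The curves lie close together, with medians of 1403 and 1365 bp.

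Few lines had a gap under 100 bp to the other list or shared under 50 bp with it. Just outside it, the smallest gap was 35 bp, between a line of the shorter list on chromosome XV, 321966 to 322153, and a line of the other list that ends at 321930. On chromosome IX a line of the shorter list, 438907 to 439145 with a fold enrichment of 1.61, ended 69 bp before a line of the longer list with a fold enrichment of 22.7. This one stands beside one of the tallest lines of the other list, 780 bp from the furthest listed position of the chromosome. The smallest gaps of the longer list were 73 bp on chromosome XII, 157736 to 157946, 74 bp on chromosome XIII, 637453 to 637658, and 81 bp on chromosome XV, 504808 to 504983. Just inside the rule, the overlapping line with the fewest shared bases was on chromosome XIII, 905639 to 905799, which met the other list by 17 bp. A pair of lines on chromosome IV, 915502 to 915651 and 915607 to 915766, shared 45 bp, and the next pair, on chromosome XIV, 91 bp. These lines on the inner edge were as low as those outside it, with fold enrichments of 1.51 to 1.92 except for the 3.20 of the line that the first of them met. Under 50 bp were shared by 1 line of the longer list and 2 lines of the shorter list. Partial overlaps were common all the same. A rule that asked for a shared 50% of both lines left 579 and 556 lines without a counterpart, against 331 and 284. Their median gaps were 218 and 90.5 bp.

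At the other extreme, the most isolated line lay on chromosome XV, 185223 to 185395, in the shorter list. Its fold enrichment was 2.68, with 114 cuts over a background of 41.9, and the nearest line of the other list was 14311 bp away. An ORC-IHΔ peak at 185210 to 185393 (fold enrichment 1.91) covered nearly all of it. The most isolated line of the longer list was on chromosome XIII, 715549 to 715887, with a fold enrichment of 1.73 and a gap of 13978 bp, and no ORC peak overlapped it. The line with the next largest gap there, on chromosome IV at 667676 to 668123 (gap 9901 bp, fold enrichment 2.3), met an ORC-IHΔ peak and no WT ORC peak.

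A few lines found in 1 list only were as high as typical overlapping lines. The highest lay on chromosome X, 531734 to 532605, in the longer list, with 221 cuts over a background of 43.4 and a fold enrichment of 5.0. The next were on chromosome V, 250163 to 250750 (fold enrichment 4.62), chromosome XVI, 582021 to 582541 (4.05), chromosome XV, 228286 to 228891 (3.96), and chromosome VIII, 145893 to 146387 (3.79). These 5 lines were 495 to 872 bp wide. None of them met an ORC peak of either strain, and all but the one on chromosome XVI, whose gap was 282 bp, stood 1718 bp or more from the other list. For the lines on chromosomes V, XVI and XV the nearest line of the shorter list was itself found in that list only.

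In the shorter list the highest was on chromosome XI, 105166 to 106467, with 202 cuts over a background of 52.7 and a fold enrichment of 3.78. It was 1302 bp wide and held a WT ORC peak of low fold enrichment (2.18, at 105261 to 105521). Further lines of the shorter list with no counterpart stood close on each side, at 104844 to 104993 and 106551 to 107104, so that this stretch was a run of lines of one list. The next highest were on chromosome V, 7437 to 8002 (fold enrichment 3.43), chromosome XII, 156361 to 156761 (3.29), chromosome XI, 33804 to 34574 (3.05), and chromosome VII, 14458 to 14666 (3.03). Of these only the line on chromosome XII met an ORC peak, and it met one of each strain.

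Along the chromosomes, lines found in 1 list only were spread over all 16 nuclear chromosomes in both lists. Their share ran from 4.52% on chromosome II (7 of 155 lines) to 21.7% on chromosome VIII (25 of 115) in the longer list. It ran from 8.48% on chromosome II (14 of 165) to 15.8% on chromosome X (23 of 146) in the shorter list. Chromosome II was lowest in both. With both lists counted together, chromosome II had 6.56% (interval 4.33% to 9.82%) and chromosome VIII 18.3% (13.7% to 23.9%), and the extremes were picked from 16 chromosomes after the values were seen. On every nuclear chromosome the intervals of both lists overlapped.

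**Figure D3:**
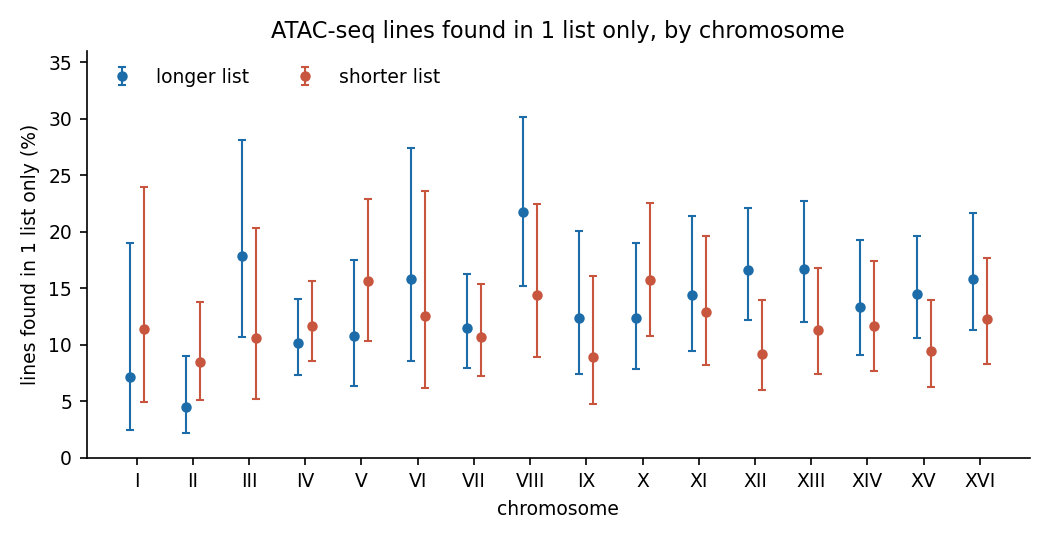
Share of the ATAC-seq lines of each nuclear chromosome that were found in 1 list only, in percent, by list. Points are shares and bars 95% Wilson intervals covering counting error only; chromosome II is lowest in both lists (4.52% and 8.48%).

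Near the chromosome ends the shares of the lists leaned opposite ways. Within 30 kb of an end lay 17 of 331 (5.14%, interval 3.23% to 8.07%) of the lines found only in the longer list, against 7.87% of all its nuclear lines. For the shorter list it was 34 of 281 (12.1%, interval 8.79% to 16.4%), against 8.53%. The share of the whole list fell inside the interval for the longer list and just below it for the shorter list. Within 10 kb there were 7 and 9 lines (2.11% and 3.20%), close to the 2.42% and 2.57% of the whole lists. Chromosome ends were taken as the furthest listed position, so distances to right-hand ends are lower limits.

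When both lists were merged into 2716 regions and read along each chromosome, the 615 lines fell into 477 runs of neighbouring regions, 373 of them a single line. These lines make up 615 of the 2716 regions, and nothing is read from the number of single ones. There were 77 runs of 2, of which 51 came from one list, 20 of 3 and 7 of 4. In windows of 10 kb, 287 of 1212 held lines found only in the longer list and 236 held lines found only in the shorter list, with 55 holding both. Windows were not counted for all lines, so nothing is read from the 55. No window held more than 4.

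Close groups were more common in the shorter list. Another line found only in the same list lay within 500 bp for 34 of its 284 lines and for 14 of the 331 of the longer list. The tightest run was on chromosome XIV, where 4 lines of the shorter list stood within 1403 bp, 654875 to 656277, with fold enrichments of 1.39 to 1.94 and no line of the other list between them. Runs of 3 lines of this list stood on chromosome IV, 149550 to 150620, and on chromosome X, 165695 to 167807, where the first line was 1328 bp wide. A run of 4 in the longer list began at its highest line, on chromosome X, but spread over 11261 bp. An adjacent pair on chromosome XVI, at 529150 to 529299 and 529372 to 529565, was the closest of that list, 72 bp apart. Any line of the own list lay within 500 bp for 90 (27.2%) and 88 (31.0%) of the lines found in 1 list only, and any line of the other list for 79 (23.9%) and 58 (20.4%). The gap to the own list had a lower quartile of 435 and 297 bp for these lines. Over all lines of each list it was 570 and 569 bp, so close neighbours were also frequent there. The difference was not tested.

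The 2-micron plasmid, a multicopy circle carried in the yeast nucleus, held lines of both lists. All 3 of its lines in the longer list had a counterpart. The shorter list had 7 plasmid lines, and 3 neighbouring ones, 1208 to 1358, 1538 to 1784 and 1909 to 2253, had none. Their fold enrichments were low, at 1.65, 1.36 and 1.87, but rested on 859 to 1184 cuts over local backgrounds of 629 to 634. The background at the plasmid lines of the longer list was 172 and 186 cuts where it could be recovered. The plasmid thus carried more than 3 times as many background cuts in one library as in the other, while the genome-wide backgrounds were 41.9 and 43.4. Whether its copy number differed between the cultures was not tested.

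WT ORC peaks were met about as often by lines found in 1 list only as by the rest. This counts every line with a WT ORC peak, whether or not it also met an ORC-IHΔ peak. Over all lines, 8.31% of the longer list and 8.38% of the shorter list overlapped a WT ORC peak. Of the lines found in 1 list only it was 24 of 331 (7.25%, interval 4.92% to 10.6%) and 24 of 284 (8.45%, 5.74% to 12.3%), and of the overlapping lines 8.47% and 8.38%. ORC-IHΔ peaks were met much less often by lines found in 1 list only. They overlapped 52.3% and 52.5% of all lines but only 80 of 331 (24.2%, interval 19.9% to 29.1%) and 64 of 284 (22.5%, 18.1% to 27.7%) of the lines found in 1 list only. Overlapping lines reached 56.7% (54.6% to 58.8%) and 56.5% (54.4% to 58.5%). For ORC-IHΔ the intervals are therefore far apart, and for WT ORC they overlap. With the midpoint of the ORC peak required in the line, the WT ORC shares fell to 14 of 331 (4.23%, interval 2.54% to 6.97%) and 10 of 284 (3.52%, 1.92% to 6.36%), and those of overlapping lines were 4.98% and 5.11%. The ORC-IHΔ shares were then 20.5% and 20.4% against 54.8% and 54.3%. When only the higher 50% of each ORC list by fold enrichment was used, WT ORC was met by 11 of 331 (3.32%, interval 1.87% to 5.85%) and 19 of 284 (6.69%, 4.32% to 10.2%), against 5.49% and 5.38% of overlapping lines, and ORC-IHΔ by 11.2% and 10.6% against 33.6% and 33.5%. Under both rules the intervals overlap for WT ORC and are apart for ORC-IHΔ. Peaks of both strains were met by 15 (4.53%) and 10 (3.52%) of the lines found in 1 list only, against 6.81% and 6.72% of all lines. No ORC peak was met by 242 (73.1%) and 206 (72.5%), against 46.2% and 45.8% of all lines. The ORC lists come from other libraries than the rule used. Peaks at RNA genes appear, from the list names, to have been left out of them.

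Narrow lines give an ORC peak less room, so the shares were set side by side within width classes. Among lines of 150 to under 200 bp the ORC-IHΔ shares were 28.2% (35 of 124) for those found only in the longer list and 32.7% (81 of 248) for its overlapping lines, with intervals that overlap. Those of the shorter list were 23.9% (17.7% to 31.6%) and 37.5% (31.9% to 43.4%). The distance widened with width. Among lines of 400 to under 600 bp the shares were 16.7% (8 of 48) against 49.8%, and 11.1% (3 of 27) against 48.0%. Of the 10 and 8 lines of 600 bp or more, 1 in each list met an ORC-IHΔ peak, against 74.7% and 78.1% of overlapping lines. The share with an ORC-IHΔ peak thus rose with width among overlapping lines, and it lay between 10.0% and 28.2% in every width class among lines found in 1 list only. For WT ORC the intervals overlapped in every width class of both lists. At 200 to under 300 bp the WT ORC shares were 9.52% against 3.35% for overlapping lines in the longer list. In the shorter list they were 10.3% against 6.01%. At 300 to under 400 bp they were 4.55% (2 of 44) against 6.30% and 6.90% (2 of 29) against 7.33%, counts too low to read a direction. From 600 bp on they were 0 of 10 against 13.0% in the longer list. In the shorter list they were 3 of 8 (37.5%, interval 13.7% to 69.4%) against 12.0% (9.93% to 14.4%). The shares were also set side by side within classes of fold enrichment. Under 1.8 the ORC-IHΔ shares were 27.2% (22 of 81) against 29.2% for overlapping lines in the longer list and 20.0% (15 of 75) against 31.4% in the shorter list, with overlapping intervals in both. At a fold enrichment of 2 to under 2.5 they were 30.1% (22.7% to 38.7%) against 44.6% (39.5% to 49.8%) and 22.7% (15.9% to 31.4%) against 43.5% (38.3% to 48.8%). At 1.8 to under 2 the shares were 23.1% (14.5% to 34.6%) against 38.6% (30.2% to 47.8%) and 20.0% (11.8% to 31.8%) against 38.0% (29.4% to 47.4%), and the intervals overlapped in both lists. In the longer list the shares were 5 of 45 (11.1%, 4.84% to 23.5%) against 45.6% at 2.5 to under 3 and 1 of 17 (5.88%, 1.05% to 27.0%) against 65.5% from 3 on, with intervals apart in both classes. In the shorter list they were 10 of 32 (31.2%, 18.0% to 48.6%) against 45.3% at 2.5 to under 3 and 2 of 7 (28.6%, 8.22% to 64.1%) against 66.0% (63.4% to 68.6%) from 3 on, with intervals that overlap in both classes. The intervals were thus apart at 2 to under 2.5 in both lists and, above that, in the longer list but not in the shorter. The difference between the lists was not tested.

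**Figure D4:**
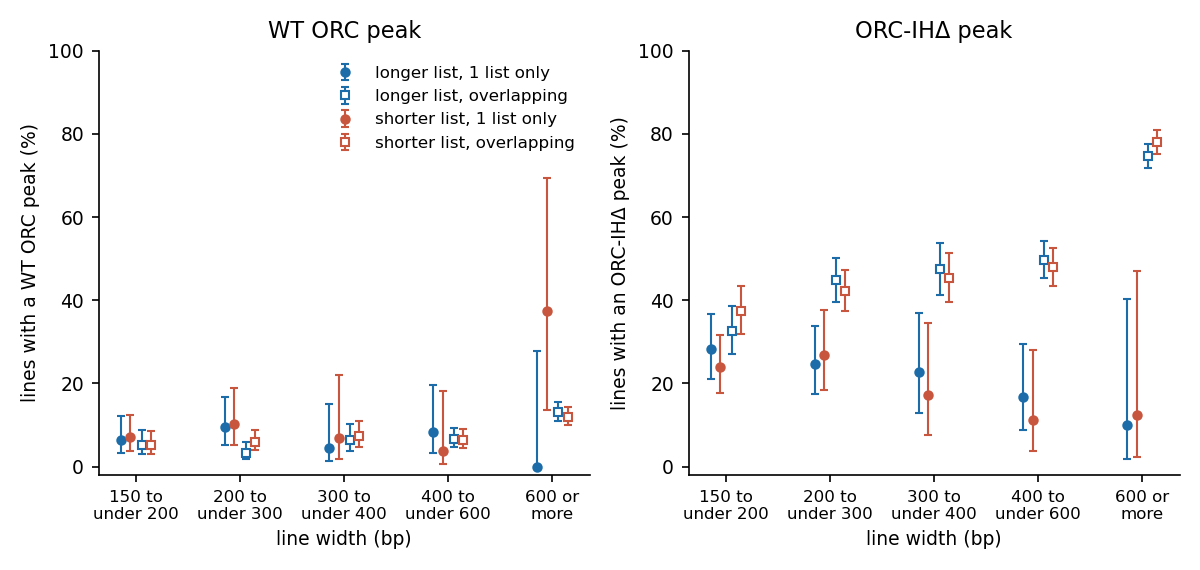
Share of ATAC-seq lines that overlap a WT ORC peak (left) or an ORC-IHΔ peak (right), in percent, by line width in bp. Filled circles are lines found in 1 list only, open squares overlapping lines, and bars 95% Wilson intervals; in the right panel the open squares rise to 74.7% and 78.1% while the filled circles lie between 10.0% and 28.2%.

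The WT ORC peaks at these lines differed in height between the lists, although their number was alike. This contrast was noticed in the data, after the values were seen, and carries no test. The 24 WT ORC peaks at lines found only in the longer list had a median fold enrichment of 2.77 (interquartile range 2.20 to 3.26, range 1.90 to 9.46). The 25 at 24 lines found only in the shorter list had a median of 7.47 (3.93 to 8.67, range 1.90 to 9.64). The interval of the median, from order statistics of the peaks, was 2.22 to 3.23 for the former and 5.01 to 8.25 for the latter. With 1 value per ORC peak name it was 3.93 to 8.25 for the latter. WT ORC peaks at overlapping lines had a median of 3.26 (n = 189), and those at no ATAC-seq line of either list 2.65 (n = 389). In the median, the peaks at lines found only in the longer list were near the 2.90 of the whole WT ORC list, though their upper quartile of 3.26 was lower than the 5.65 at which the list's 155 tallest peaks begin, and those at lines found only in the shorter list stood above it. The ranges overlap almost fully. One WT ORC peak name, on chromosome X, counts on both sides: its pieces at 441074 to 441343 and 442142 to 443438, each with the fold enrichment of 9.46, met a line of the shorter and of the longer list. Without that name, left out after seeing the data, the medians were 2.76 (n = 23) and 7.44 (n = 24). When a counterpart had to share 50% of both lines, an alternative added after seeing the data, the medians were 2.88 and 4.33. Their intervals were then 2.50 to 3.08 and 3.00 to 6.65.

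The 155 tallest of the 618 WT ORC peaks begin at a fold enrichment of 5.65. Of the peaks at lines found only in the shorter list, 17 of 25 were among these (68.0%, interval 48.4% to 82.8%). Of those at lines found only in the longer list it was 3 of 24 (12.5%, interval 4.34% to 31.0%), and at overlapping lines 30.2%. An ORC-IHΔ peak overlapped 11 of the 25 and 17 of the 24 WT ORC peaks, and 147 of the 189 at overlapping lines. ORC-IHΔ peaks showed no such contrast. Their medians were 2.95 (n = 84) and 2.98 (n = 65) at lines found only in the longer list and only in the shorter list, and 3.30 at overlapping lines. Of the peaks at lines found in 1 list only, 5 WT ORC peaks of the former and 4 of the latter also reached an overlapping line. Wider ORC peaks can meet a line by width alone, and the median width was 599 bp for the 25 and 289 bp for the 24.

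**Figure D5:**
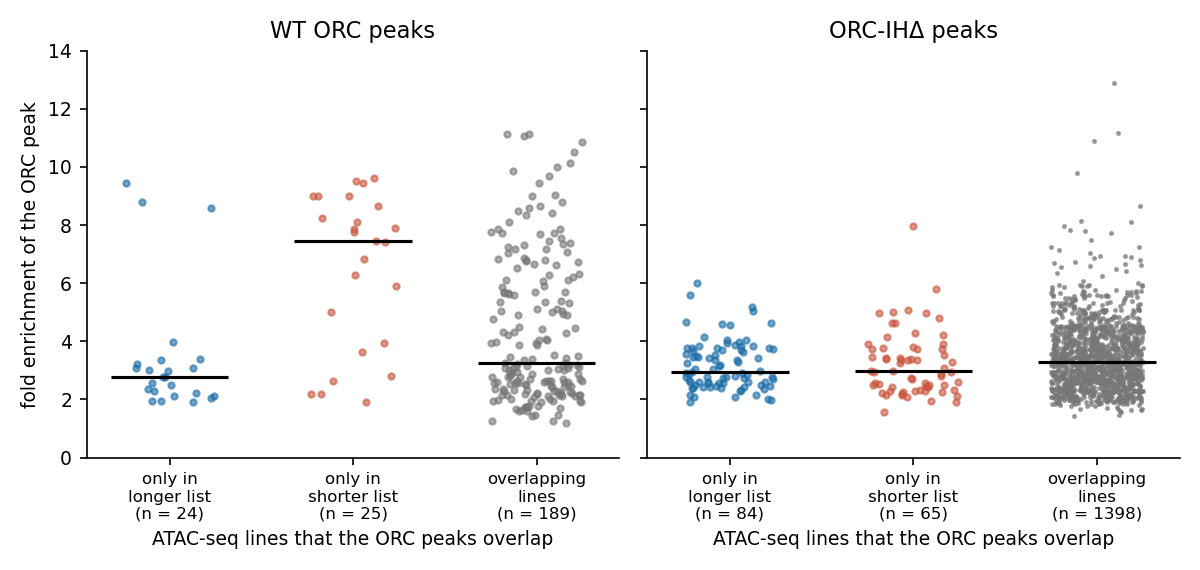
Fold enrichment of each WT ORC peak (left) and ORC-IHΔ peak (right) at lines found only in the longer list, only in the shorter list, and at overlapping lines. Each point is a peak and black bars are medians, 2.77, 7.47 and 3.26 on the left and 2.95, 2.98 and 3.30 on the right; sideways spread is for display.

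The ATAC-seq lines at these 17 tall WT ORC peaks were themselves ordinary. With the line that held 2 of the peaks counted at each, their median fold enrichment was 2.11 (range 1.61 to 3.29), with a median of 93 cuts and a median width of 226 bp, and they lay on 13 chromosomes. One pair of the peaks, on chromosome XII at 90675 to 90866 and 90975 to 91932, consists of pieces with the same fold enrichment (8.98) in a single line. With 1 value per peak name the median was 7.44 (n = 24). The gap from the lines to the longer list had a median of 1378 bp and ran from 69 to 12266 bp, so the tall WT ORC peaks were not all beside a line of the other list. The median distance between the midpoints of line and ORC peak was 240.5 bp. The lines thus often lay to one side of the middle of the ORC peak.

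The tallest of these peaks was on chromosome II, 741190 to 742329, with a fold enrichment of 9.64. The line there, 741114 to 741326 in the shorter list, had 85 cuts over 41.9 and a fold enrichment of 2.01, and the nearest line of the longer list was 12266 bp away. An ORC-IHΔ peak of fold enrichment 2.95 met both. On chromosome VIII the line 245955 to 246135 (110 cuts, fold enrichment 2.59, gap 8097 bp) lay wholly within a WT ORC peak at 245082 to 246298 of fold enrichment 8.67, and the nearest ORC-IHΔ peak was 9386 bp away. On chromosome XI the line 448238 to 448387, of the smallest width called, lay within a WT ORC peak at 447466 to 448524 (fold enrichment 9.51) that met no ORC-IHΔ peak. On chromosome III the line 197153 to 197418 (fold enrichment 2.03, gap 3900 bp) met a WT ORC peak of 8.10 and an ORC-IHΔ peak of 2.56. These 4 sites show the range, from sites with a peak in both strains to sites listed for WT ORC alone.

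The highest line of either list to meet ORC peaks of both strains was on chromosome XII, 156361 to 156761, in the shorter list. It had 148 cuts over 44.3, a WT ORC peak of fold enrichment 7.42 and an ORC-IHΔ peak of 3.28. The nearest line of the longer list, 974 bp away at 157736 to 157946, was itself without a counterpart. On chromosome VII the line 485220 to 485477 met a WT ORC peak of 9.01 and an ORC-IHΔ peak of 5.02, with 270 cuts over a local background of 123, so that a high background went with its fold enrichment of 2.18. On chromosome III another such line, 224821 to 224989 (fold enrichment 2.38), stood 141 bp from the longer list and met peaks of 2.62 and 4.62.

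In the longer list, the 3 lines at tall WT ORC peaks were on chromosome X, 443177 to 443348 (WT ORC 9.46), chromosome XIV, 499345 to 499538 (8.80), and chromosome IX, 32954 to 33153 (8.58). All 3 of these WT ORC peaks met an ORC-IHΔ peak. The highest line of this list with peaks of both strains was on chromosome VII, 311501 to 311890, with 107 cuts over 43.4, a fold enrichment of 2.43, and peaks of 3.39 for WT ORC and 3.04 for ORC-IHΔ. Next came the line on chromosome XIV, then one on chromosome XI, 302506 to 302936 (fold enrichment 2.23), with peaks of 3.07 and 3.71. Of the lines with a WT ORC peak alone, the highest was on chromosome IV, 1236606 to 1236888 (fold enrichment 2.09, WT ORC 3.23). An ORC-IHΔ peak stood 123 bp beyond the end of the line and overlapped that WT ORC peak, so only the line missed it.

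Lines with an ORC-IHΔ peak and no WT ORC peak numbered 65 of 331 (19.6%) and 54 of 284 (19.0%). This was below the 45.5% and 45.8% of all lines and the 49.5% and 49.3% of overlapping lines. It was the largest group with ORC in both lists, as it was over all lines. The highest in the longer list was on chromosome XII, 747376 to 747809, with 142 cuts over 43.4, a fold enrichment of 3.22 and an ORC-IHΔ peak of 4.03. Its nearest line in the shorter list was 8968 bp away. Next were chromosome X, 21714 to 21913 (fold enrichment 2.70, ORC-IHΔ 4.59), and chromosome XV, 373465 to 373712 (2.65, ORC-IHΔ 2.77). In the shorter list the highest was on chromosome IV, 407394 to 407826, with 348 cuts over a local background of 115, a fold enrichment of 3.02 and an ORC-IHΔ peak of 2.99. It was followed by chromosome VIII, 384778 to 384983 (fold enrichment 2.99, ORC-IHΔ 3.79), and chromosome XVI, 627023 to 627240 (2.96, ORC-IHΔ 2.74), which stood 141 bp from a line of the longer list with a fold enrichment of 7.73.

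From the side of ORC, few peaks met these lines alone. An ATAC-seq line found in 1 list only was the sole ATAC-seq overlap of 40 of 618 WT ORC peaks (6.47%) and of 145 of 2219 ORC-IHΔ peaks (6.53%). These shares are over all ORC peaks, and the rest of the 2 ORC lists differed. Overlapping ATAC-seq lines were met by 30.6% of WT ORC and 63.0% of ORC-IHΔ peaks, and no ATAC-seq line by 62.9% and 30.5%. Among the lines that overlapped no WT ORC peak, 45 of 307 in the longer list and 13 of 260 in the shorter list had one within 1000 bp. Of the overlapping lines with no WT ORC peak it was 239 of 1967 and 256 of 1991.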

How the data were processed

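ATAC-seq of 2 strains (1 library each) and ORC ChIP-seq (2 libraries per strain, combined by the authors) were used. MCM, BrdU and MNase libraries were not analysed here. The deposited peak lists, made by the authors, give per line a fold enrichment (a linear ratio to background), a −log10 p and a −log10 q. The submitters' processing notes name Bowtie2 2.3.4.1, Picard and MACS2 2.1.1.20160309 for ATAC-seq, and Bowtie 1.2.2, Picard, SAMtools 1.3.1, bedtools 2.27.1 and MACS2 for ORC, with build sacCer2 and no roles. The names of the deposited ATAC-seq lists read as unique, deduplicated cut sites, shifted by -75 bp, extended to 150 bp and called at p 0.01. Centring on the cut keeps a line on accessible DNA but widens it to at least the extension. Reads per library are unknown.

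Lines sharing 1 bp or more were overlapping. Gaps are bases between nearest ends. Cuts were recovered as the whole number that gives both the deposited fold enrichment, as (cuts + 1)/(background + 1), and −log10 p, as a Poisson tail, within 3 times the rounding error. This worked for 1960 of 1962 and 1986 of 1987 overlapping lines with a −log10 p under 300. Shares have 95% Wilson intervals. The order-statistic interval of a median treats peaks as independent. No test was made. The overlap and recovery code was tested on simulated data.

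Regions named are, per ATAC-seq list, the 5 highest lines, the 3 smallest and 3 largest gaps, the 2 widest, the 5 highest with ORC peaks of both strains, the 3 highest with ORC of 1 strain only, and the 3 overlapping lines sharing fewest bases. Not every region so chosen is described. Runs, plasmid lines and lines at tall WT ORC peaks were named after their values were seen. Members and lists were chosen with earlier results of these data known. Alternatives changed the overlap rule (a reciprocal 50%, 100 bp, midpoints), required a −log10 q of 2, merged lines under 100 bp apart, left out 10 kb at chromosome ends, or changed the ORC overlap. Scripts ran in Python 3.11.15 with scipy 1.17.1, numpy 2.4.6 and pandas 2.3.3, and figures were drawn with matplotlib 3.10.9.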

Additional observations from a re-analysis of the deposited data

How the results depend on the processing

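Of 102 alternative values for 12 results, 84 stayed within the limit set for each result and 18 moved. For line counts the limit was a set factor, and for the other results the interval of the main value. Some alternatives could hardly move a result. A −log10 q of 2 took out 2 and 4 lines, with the same values for candidates alone and for both lists. The 100 bp rule took out 6 and 9. The 84 are therefore no measure of stability. None changed direction, since no direction was called. Requiring a reciprocal overlap of 50% moved most: lines without a counterpart rose to 579 (longer list) and 556 (shorter list), median gaps fell to 218 and 90.5 bp, median widths were 282 and 230 bp, and 31.1% and 31.3% met an ORC-IHΔ peak. Under that rule, chosen for this value after seeing the data, the median fold enrichment of WT ORC peaks at lines of the shorter list was 4.33. With the midpoint rule the median gaps were 879 and 1157 bp and the median widths 270.5 and 210.0 bp. With the midpoint of an ORC peak required in the line, 4.23% (longer list) and 3.52% (shorter list) of the lines found in 1 list only met a WT ORC peak, against 4.98% and 5.11% of overlapping lines. With only ORC peaks at or above their median fold enrichment, 11 of the 331 lines found only in the longer list (3.32%) and 19 of the 284 of the shorter list (6.69%) met a WT ORC peak, and 11.2% and 10.6% met an ORC-IHΔ peak. No paired analysis was possible because each strain has a single ATAC-seq list and no test was made. The contrast in WT ORC height rests on 24 and 25 peaks and 1 library per list, and its link to a strain cannot be told apart from the conflict between labels and list names.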
